A study of Mus musculus with 8 samples.

Results

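The NRF2 pathway genes described here are 10 mouse genes chosen by name: the transcription factor gene Nfe2l2, which encodes NRF2, its inhibitor gene Keap1, and the target genes Nqo1, Gclc, Gclm, Txnrd1, Srxn1, Slc7a11, Osgin1 and Gsr. Each symbol matched 1 row of the deposited gene table, so 10 of its 54532 genes were taken, and all 10 passed the filter on low counts that left 17725 genes for testing. RNA was sequenced from retina of rd10 mice, which carry a mutation of the rod phosphodiesterase gene Pde6b and lose their rods and later their cones. All 8 libraries share that genotype, and 4 carry the label sIVs, for which the series title has small intracellular vesicles, while 4 are labelled PBS, read here as phosphate-buffered saline. Titles number the PBS libraries 1 to 4 and the sIVs libraries 2 to 5. The source, dose and route of the vesicles and the age and sex of the mice are not stated in the sources used here. Nothing in the labels ties a library, called a biosample there, to a single animal. The p-values therefore reflect only how far these libraries vary, which may be technical.

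NRF2 is a transcription factor that switches on genes for glutathione synthesis, thioredoxin recycling and quinone reduction. In resting cells KEAP1 holds it for ubiquitination by a ligase built on cullin 3, and oxidants or electrophiles that modify KEAP1 cysteines let NRF2 build up, enter the nucleus, pair with a small MAF protein and bind the antioxidant response element. Because much of this control acts on the protein, the level of Nfe2l2 mRNA is not a measure of NRF2 activity. In the retina the pathway is known for protecting photoreceptors, Müller glia and the pigment epithelium from oxidative damage.

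Short stretches of promoter are shown for those genes whose promoter held the core letters of the antioxidant response element. RefSeq promoter entries of build GRCm38.p6, each covering 250 bases before and 50 bases after an annotated start, were found for 8 of the 10 genes. TGACNNNGC and TGAGNNNGC, the core of the element, were searched on both strands. At least 1 match was found for 6 of those 8 genes, against 30.8% of all 27025 genes in the promoter table. The sequences are printed along the gene's own strand with the match in capitals and up to 25 bases on either side, so a match on the opposite strand appears as its reverse complement.
Nfe2l2, chr2:75704870-75704913, minus strand, 240 bases before the start: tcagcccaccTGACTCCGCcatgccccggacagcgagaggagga
Srxn1, chr2:152105341-152105399, plus strand, 158 bases before the start, match on the other strand: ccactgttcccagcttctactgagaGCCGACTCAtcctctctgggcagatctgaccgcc
Srxn1, chr2:152105454-152105512, plus strand, 45 bases before the start: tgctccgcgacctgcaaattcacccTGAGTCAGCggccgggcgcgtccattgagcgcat
Slc7a11, chr3:50443677-50443735, minus strand, 97 bases before the start, match on the other strand: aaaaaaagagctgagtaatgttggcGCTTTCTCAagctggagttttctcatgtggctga
Gclm, chr3:122245398-122245456, plus strand, 134 bases before the start, match on the other strand: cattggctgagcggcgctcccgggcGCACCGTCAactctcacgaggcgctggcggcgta
Osgin1, chr8:119437023-119437081, plus strand, 99 bases before the start, match on the other strand: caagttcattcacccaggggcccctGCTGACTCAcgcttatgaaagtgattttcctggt
Txnrd1, chr10:82859089-82859147, plus strand, 92 bases before the start, match on the other strand: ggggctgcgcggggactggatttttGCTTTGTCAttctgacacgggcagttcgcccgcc
A further Srxn1 match lies past the start and is not shown. The second Srxn1 window and the Osgin1 window hold TGAGTCAGC, in which the response element overlaps TGANTCA, the site of AP-1, another transcription factor family. TGANTCA by itself was found in 7.81% of the 32851 promoter entries. In GENCODE M21 the Osgin1 and Txnrd1 windows lie in introns of those genes, before the start of a shorter RefSeq transcript, the Nfe2l2 window lies in an exon of the neighbouring gene E030042O20Rik, and the others lie between genes. Other promoter entries of Txnrd1 held no match. Keap1 and Nqo1 had no match, which says only that these letters are not in this window. A match is a description of letters and shows no binding.

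The libraries held 14640235 to 15948291 counts in PBS and 15039385 to 16989737 in sIVs. Rod, microglial, vessel and haemoglobin markers set sIVs libraries 3 and 4 apart. The 16 rod markers summed to 39568 to 47853 CPM (counts scaled to the size of the library) in PBS, to 44915 and 35992 CPM in sIVs libraries 2 and 5, and to 10635 and 10161 CPM in sIVs libraries 3 and 4. Reactive glia markers, 12 genes, summed to 889 to 1698 CPM across PBS. They were at 1764 and 2567 CPM in sIVs libraries 2 and 5 and at 3813 and 3915 CPM in libraries 3 and 4. Among these 12 genes, 8 were higher in every sIVs library than in any PBS library, as were 4.42% of all genes tested. The median log2 fold change of the reactive glia markers was 1.30, and 0.80 without sIVs libraries 3 and 4. Microglia and macrophage markers, 16 genes, summed to 236 to 383 CPM in PBS, to 306 and 240.4 CPM in sIVs libraries 2 and 5, and to 646 and 764 CPM in libraries 3 and 4, with Itgam higher in every sIVs library and P2ry12 lower, where 3.36% of all genes tested were lower in every sIVs library. Of the 12 homeostatic Müller glia genes, Sox9 was higher and Glul and Abca8a lower in every sIVs library, and their sum was 6639 to 8268 CPM across PBS and 4704 to 7598 CPM in sIVs. On the log2 scale relative to the PBS mean, the medians of these Müller glia genes were -0.26 and -0.57 in sIVs libraries 2 and 5. In libraries 3 and 4 they were 0.33 and 0.55. Pigment epithelium markers summed to 65.4 to 224 CPM across PBS and 38.7 to 122 CPM in sIVs. Vessel markers summed to 428 to 507 CPM in PBS. They were at 422 and 395 CPM in sIVs libraries 2 and 5 and at 756 and 759 CPM in libraries 3 and 4. Haemoglobin genes summed to 38.2 to 54.3 CPM in PBS. They were at 41.4 and 48.0 CPM in sIVs libraries 2 and 5 and at 27.0 and 23.4 CPM in libraries 3 and 4. Of 10 lens and cornea markers only 2 passed the filter, and none of the marker genes was at 0 in all libraries. In whole retina, fewer cells of a type and less RNA per cell cannot be told apart. Results below are given with all libraries and, where a log2 fold change, list median or count moves by more than 1.5 times or changes sign, without sIVs libraries 3 and 4. Whether the shift in these markers has a part in the values of the NRF2 pathway genes was not tested.

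Per unit of gene length, the 10 genes spanned a 26.7-fold range in PBS. In FPKM (fragments scaled to gene length and library size, the level scale used here to compare genes), the sulfiredoxin gene Srxn1 led at 29.1 ± 2.27, followed by Gclc at 12.9 ± 1.05, Keap1 at 12.0 ± 0.673, Gsr at 9.66 ± 0.871, Nfe2l2 at 8.92 ± 0.630, Txnrd1 at 8.77 ± 0.620 and Gclm at 7.21 ± 0.146 (SD, n = 4). Nqo1 followed at 2.93 ± 0.384, Osgin1 at 1.32 ± 0.303 and Slc7a11 at 1.09 ± 0.134 FPKM. The PBS ranges of Gclc and Keap1 overlapped, as did those of Gsr and Nfe2l2, of Nfe2l2 and Txnrd1, and of Osgin1 and Slc7a11, while the other neighbours in this order were separate. In sIVs the mean of Txnrd1 was 12.0 ± 2.41 FPKM and that of Srxn1 31.8 ± 1.31 FPKM (SD, n = 4).

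**Figure D1:**
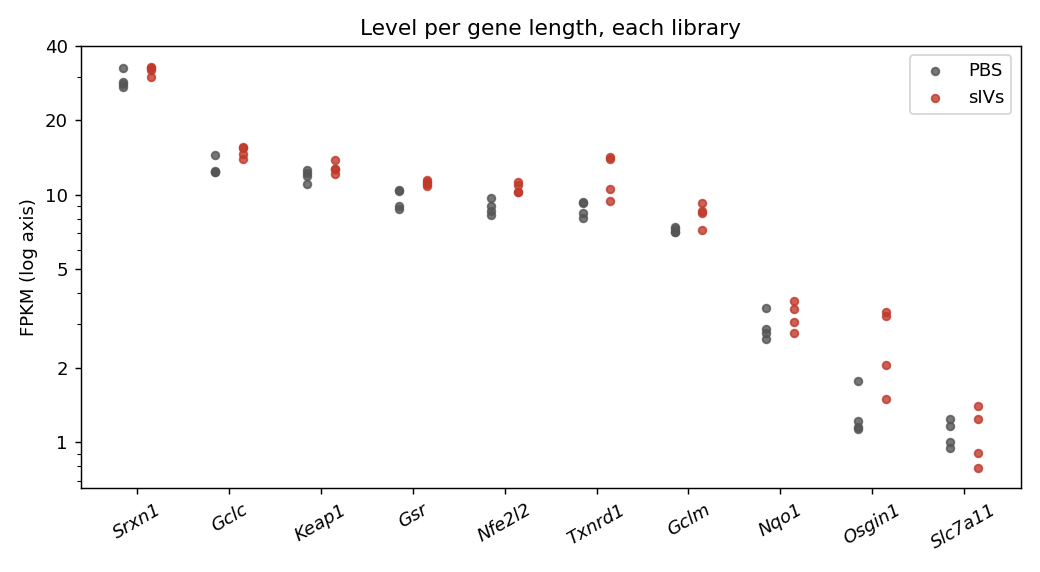
Deposited FPKM of the 10 genes on a log axis, ordered by the PBS mean, with 1 point per library (grey PBS, red sIVs, 4 each). Srxn1 stands above the other genes in every library, and Slc7a11 and Osgin1 lie at the bottom of the order in PBS.

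No gene of the 10 passed the test between sIVs and PBS, and neither did any of the 17725 genes tested (edgeR quasi-likelihood test, Benjamini-Hochberg adjusted p under 0.05, 0% called). Small differences in one direction were nevertheless seen: 9 of the 10 had a positive log2 fold change, with a median of 0.21, against 49.0% of all tested genes and a median of -0.01. At an unadjusted p under 0.05, 6 of the 10 were higher in sIVs, where 9.61% of all tested genes were, and 0 were lower, where 5.63% were. In 3 of the 10, Nfe2l2, Txnrd1 and Gsr, every sIVs library stood above every PBS library, where 4.42% of all tested genes did so, and none stood below in all, where 3.36% did. Over all genes 2702 had an unadjusted p under 0.05. DESeq2 called 1 of the 10, Osgin1, where it called 3.22% of all genes. With limma-voom none of the 10 and 0% of all genes were called, and with its sample quality weights 6 of the 10 and 28.1% of all genes were. The 10 genes belong to 1 pathway and are not independent of each other. They were chosen with earlier results of these data known, so the shares over all genes are a description and no independent test.

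**Figure D2:**
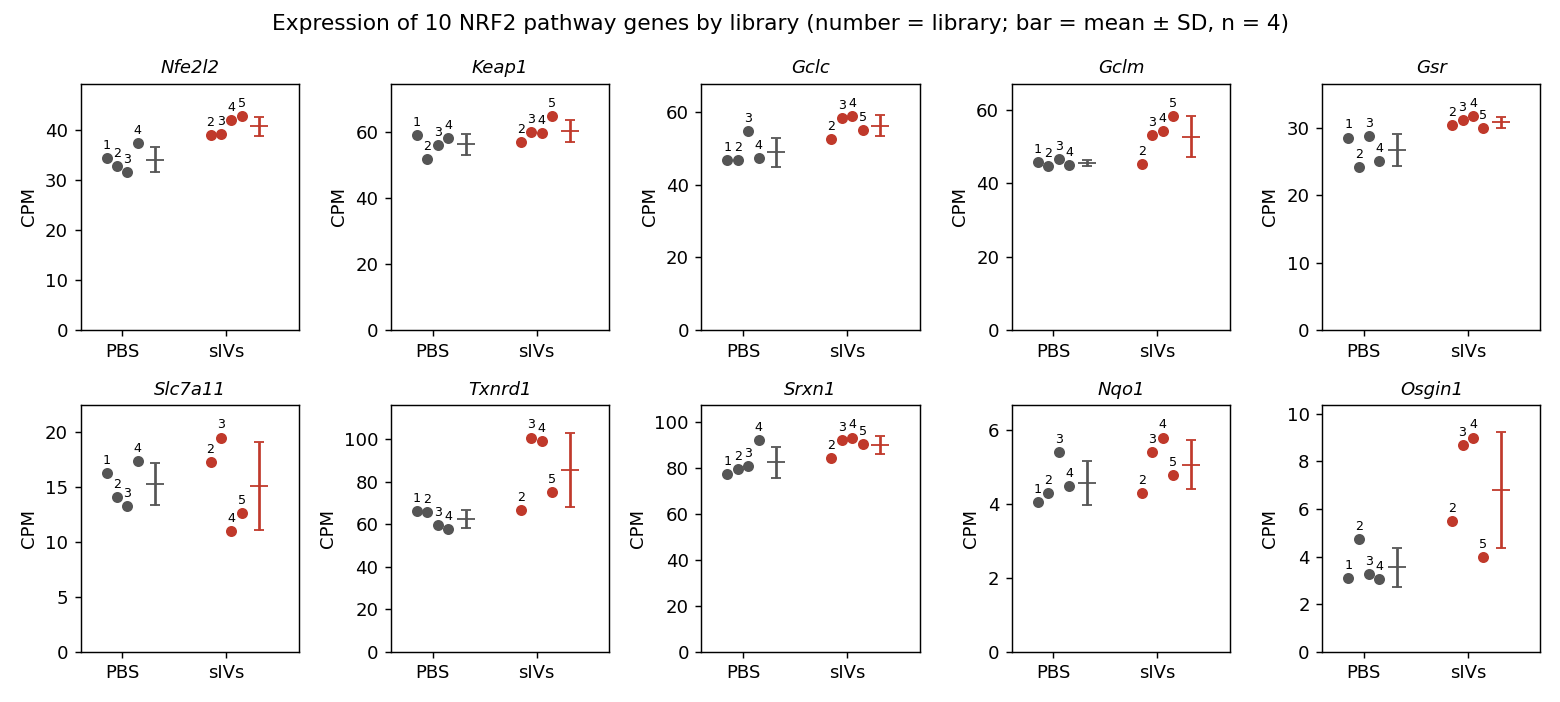
CPM of each of the 10 genes in each library, with library numbers beside the points and the mean ± SD (n = 4) at the right of each group (grey PBS, red sIVs; every axis starts at 0). Nfe2l2 and Gsr lie higher in all 4 sIVs libraries by a similar step, Txnrd1 and Osgin1 are highest in sIVs libraries 3 and 4, and Slc7a11 spreads to both sides of PBS.

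Nfe2l2 (ENSMUSG00000015839, GRCm38 chromosome 2, 75675513 to 75704641), the gene of NRF2 itself, stood at 34.3, 32.7, 31.6 and 37.4 CPM in PBS libraries 1 to 4 and at 38.8, 39.1, 41.9 and 42.8 CPM in sIVs libraries 2 to 5. All sIVs libraries were above all PBS libraries, and the sIVs libraries lay close to each other, including the pair with low rod markers. Its log2 fold change was 0.26 ± 0.08 (SE; adjusted p = 0.196 by edgeR), a 1.20-fold higher mean. Without sIVs libraries 3 and 4 it was 0.26 ± 0.10 (SE; adjusted p = 0.285 by edgeR).

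Keap1 (ENSMUSG00000003308, chromosome 9, 21229730 to 21239361), which encodes the adaptor that delivers NRF2 for degradation, stood at 59.0, 51.9, 56.2 and 58.3 CPM across PBS and 57.0, 60.0, 59.9 and 65.0 CPM in sIVs. The groups overlapped through sIVs library 2, and the other 3 sIVs libraries were above every PBS library. The log2 fold change was 0.10 ± 0.07 (SE; adjusted p = 0.509 by edgeR). In GENCODE M21 exons of Keap1 overlap those of Gm16754 on the opposite strand, and the strand setting of the counting was not given in the sources used here, so reads of the 2 genes may not be separated.

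Genes of glutathione synthesis and recycling had small positive log2 fold changes in sIVs that did not pass the test, except for the cystine transporter gene, which was near 0. Gclc (ENSMUSG00000032350, chromosome 9, 77754535 to 77794485) encodes the catalytic subunit of glutamate-cysteine ligase, the rate-limiting enzyme of glutathione synthesis. It stood at 46.7, 46.9, 54.7 and 47.2 CPM in PBS libraries 1 to 4 and at 52.7, 58.3, 59.0 and 55.1 CPM in sIVs libraries 2 to 5. PBS library 3 was the high one of its group and the only one to reach into the sIVs range. The log2 fold change was 0.20 ± 0.08 (SE; adjusted p = 0.266 by edgeR) and 0.14 ± 0.09 without sIVs libraries 3 and 4.

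Gclm (ENSMUSG00000028124, chromosome 3, 122245557 to 122270732), the modifier subunit gene of the same ligase, was the steadiest of the 10 in PBS. Its PBS values were 45.8, 44.7, 46.5 and 45.0 CPM, and its sIVs values 45.2, 53.2, 54.1 and 58.4 CPM. sIVs library 2 lay within PBS and the other 3 above it, the highest being library 5. The log2 fold change was 0.21 ± 0.08 (SE; adjusted p = 0.275 by edgeR). Without sIVs library 2 it was 0.28 (edgeR adjusted p = 0.0374), in a fit that called 7.39% of all genes. Leaving out any other single library gave edgeR adjusted p from 0.313 to 0.518. Exons of Gclm overlap those of Gm17494 on the opposite strand and of Gm6061 on the same strand, so its counts carry that uncertainty.

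Gsr (ENSMUSG00000031584, chromosome 8, 33652523 to 33698163) encodes glutathione reductase, which regenerates reduced glutathione with NADPH. It stood at 28.6, 24.2, 28.8 and 25.1 CPM across PBS and at 30.4, 31.2, 31.8 and 29.9 CPM in sIVs. Every sIVs library was above every PBS library, and the sIVs values had a smaller SD, 0.830 against 2.35 CPM. The log2 fold change was 0.21 ± 0.08 (SE; adjusted p = 0.285 by edgeR), and 0.18 ± 0.11 without sIVs libraries 3 and 4.

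Slc7a11 (ENSMUSG00000027737, chromosome 3, 49892526 to 50443614) encodes the cystine importer of the cystine-glutamate exchanger, which supplies cysteine for glutathione. Its PBS values were 16.3, 14.0, 13.3 and 17.4 CPM, and its sIVs values 17.3, 19.5, 11.0 and 12.6 CPM. sIVs library 3 was above and libraries 4 and 5 below every PBS library, so the pair with low rod markers stood at opposite ends for this gene. The mean was 15.2 ± 1.91 CPM across PBS and 15.1 ± 3.97 CPM across sIVs (SD, n = 4), with a log2 fold change of -0.02 ± 0.19 (SE; adjusted p = 0.979 by edgeR). It was -0.03 without sIVs libraries 3 and 4. The value with all libraries turned positive, at 0.06, with scaling by library totals. Slc3a2, the gene of the heavy chain that carries SLC7A11 to the membrane, stood at 144, 131, 141 and 128 CPM across PBS and 138, 186, 203 and 173 CPM across sIVs (log2 fold change 0.36 ± 0.11, SE; adjusted p = 0.207 by edgeR). Without sIVs library 2 the Slc3a2 difference passed the test (edgeR adjusted p = 0.0151), in a fit that called 7.39% of all genes. For Slc3a2, leaving out any other single library gave edgeR adjusted p from 0.212 to 0.450. Without libraries 3 and 4 its log2 fold change was 0.19.

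Txnrd1 (ENSMUSG00000020250, chromosome 10, 82833951 to 82897712) encodes the cytosolic thioredoxin reductase, a selenoprotein that keeps thioredoxin reduced. It stood at 66.2, 65.7, 59.7 and 57.7 CPM in PBS libraries 1 to 4 and at 66.6, 101, 99.4 and 75.2 CPM in sIVs libraries 2 to 5. sIVs libraries 3 and 4 reached 1.62 and 1.60 times the PBS mean, library 5 reached 1.21 times it, and library 2 was only just above the highest PBS library. With a log2 fold change of 0.46 ± 0.13 Txnrd1 had the smallest p of the 10 (SE; adjusted p = 0.195 by edgeR). The value was 0.18 ± 0.09 without sIVs libraries 3 and 4 (SE; adjusted p = 0.369 by edgeR). It was 0.56 without sIVs library 2 (edgeR adjusted p = 0.0220), in a fit that called 7.39% of all genes. Leaving out any other single library gave edgeR adjusted p from 0.161 to 0.435.

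Srxn1 (ENSMUSG00000032802, chromosome 2, 152105516 to 152111376) encodes sulfiredoxin, which repairs overoxidised peroxiredoxins. Its PBS values were 77.3, 79.3, 80.8 and 92.3 CPM and its sIVs values 84.4, 92.1, 93.2 and 90.2 CPM. PBS library 4 lay within the sIVs range and the other 3 PBS libraries below it. The log2 fold change was 0.13 ± 0.07 (SE; adjusted p = 0.446 by edgeR), the mean being 1.09-fold higher for the most highly expressed of the 10, and 0.08 without sIVs libraries 3 and 4.

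Nqo1 and Osgin1, genes of low level here, differed in how they varied. Nqo1 (ENSMUSG00000003849, chromosome 8, 107388225 to 107403206), which encodes a quinone reductase widely used as a readout of NRF2, stood at 4.06, 4.30, 5.41 and 4.48 CPM across PBS and at 4.29, 5.41, 5.80 and 4.77 CPM in sIVs. The groups overlapped over most of their range. Its log2 fold change was 0.15 ± 0.17 with all libraries and -0.01 ± 0.20 without sIVs libraries 3 and 4 (SE; adjusted p = 0.692 and 0.991 by edgeR).

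Osgin1 (ENSMUSG00000074063, chromosome 8, 119434124 to 119446256), an oxidative stress-induced growth inhibitor gene, had the largest fold of the 10. It stood at 3.09, 4.75, 3.26 and 3.06 CPM in PBS libraries 1 to 4, from 43 to 74 counts, and at 5.49, 8.70, 9.00 and 4.00 CPM in sIVs libraries 2 to 5. Library 5 lay within the PBS range and below PBS library 2, and libraries 3 and 4 reached 2.46 and 2.54 times the PBS mean. The log2 fold change was 0.94 ± 0.28 (SE; adjusted p = 0.198 by edgeR; DESeq2 adjusted p = 0.0472). Without sIVs libraries 3 and 4 it was 0.41 ± 0.25 (SE; adjusted p = 0.500 by edgeR).

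**Figure D3:**
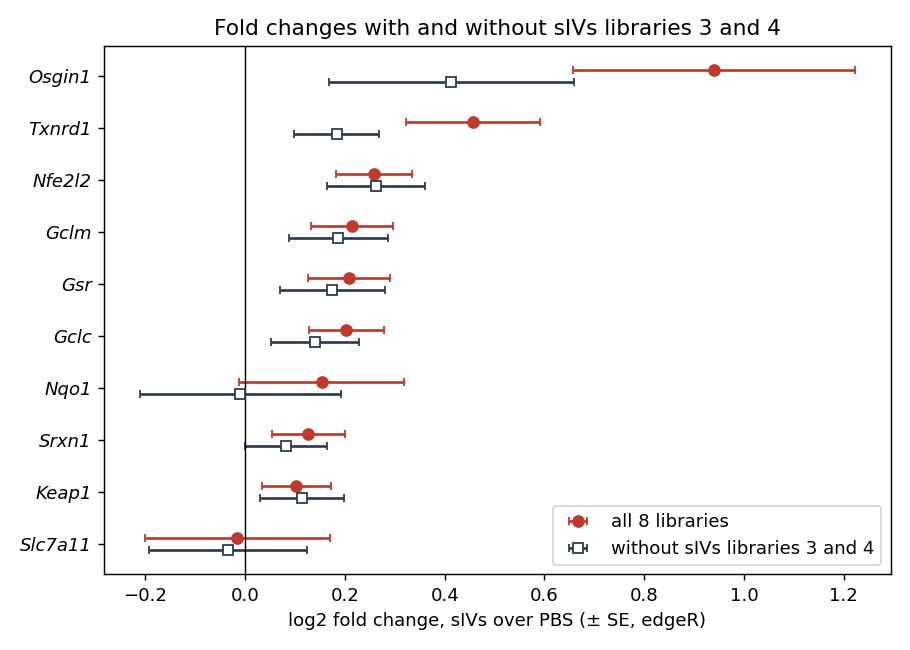
Log2 fold change of each gene, sIVs over PBS, with its SE from edgeR, for all 8 libraries (red circles) and without sIVs libraries 3 and 4 (open squares). Osgin1 moves from 0.94 to 0.41 and Txnrd1 from 0.46 to 0.18, while Nfe2l2 is 0.26 in both.

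Leaving out sIVs libraries 3 and 4 left the median log2 fold change of the 10 genes at 0.16, with 8 of 10 positive and 49.8% of all genes positive. At an unadjusted p under 0.05, 1 of the 10, Nfe2l2, was higher, against 6.73% of all genes, and 0 were lower, against 7.01%. By library, the median of the 10 genes on the log2 scale relative to the PBS mean was 0.10, 0.24, 0.27 and 0.18 in sIVs libraries 2 to 5, and it ran from -0.05 to 0.01 in PBS. The reactive glia medians were 0.60, 1.76, 1.87 and 1.07 in sIVs libraries 2 to 5, the same order as for the 10 genes, and 0.28, 0.36, -0.10 and -0.51 in PBS libraries 1 to 4, where the library with the highest reactive glia median had the lowest median of the 10 genes. In library 5 the rod median was -0.27, the microglial median -0.41 and the homeostatic Müller glia median -0.57, beside the reactive glia median of 1.07. The median of the 10 genes in that library stood above every PBS library. Whether these medians are linked was not tested.

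**Figure D4:**
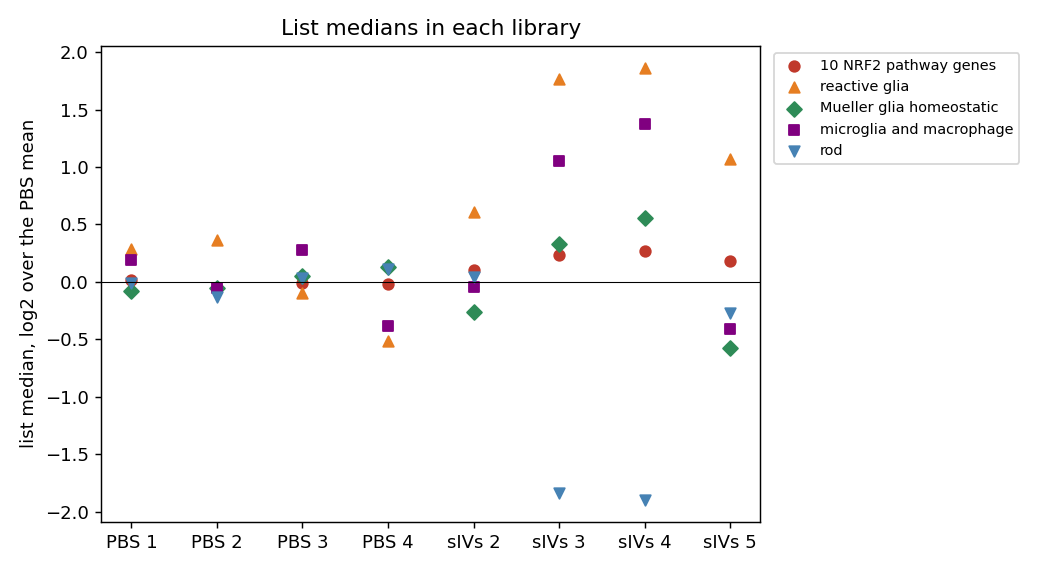
Median of each gene list in each library, on the log2 scale relative to the PBS mean, for the 10 NRF2 pathway genes and 4 marker lists. The 10 genes stay between -0.05 and 0.27, while rod medians reach -1.90 and reactive glia medians 1.87 in sIVs library 4.

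Around these 10 genes, 5 lists of 100 other genes of the pathway and its neighbours were described, of which 96 passed the filter. None passed the edgeR test after adjustment. DESeq2 called 5 of the 96, where it called 3.22% of all genes: Maff (adjusted p = 7.0e-08), Atf3 (4.4e-05), Hmox1 (0.00427), Aox1 (0.0111) and Pgls (0.0195). All 5 were higher in sIVs, where DESeq2 called 465 genes higher and 106 lower over all genes. Without sIVs library 2 edgeR called 15 of 96, 14 of them higher, where it called 7.39% of all genes. Over all genes that fit called 870 higher and 461 lower. The 5 genes called by DESeq2 were among the 15, as were Slc3a2 and Slc7a5. With any other single library left out, edgeR called 0 genes of these lists. With voom quality weights 47 of the 96 were called, 40 of them higher, where 28.1% of all genes were called. Over all genes those weights gave 2484 higher and 2489 lower. At an unadjusted p under 0.05, 29 were higher and 5 lower in sIVs, beside 9.61% and 5.63% of all genes tested, so the number lower was near the share over all genes. Without sIVs libraries 3 and 4, 15 of 98 were higher and 8 lower, beside 6.73% and 7.01% of all genes. In 10 genes every sIVs library was above and in 4 below every PBS library, beside 4.42% and 3.36% of all genes. The median log2 fold change of the 96 was 0.13, and 0.02 without sIVs libraries 3 and 4. These lists too were chosen with earlier results of these data known.

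Partners and regulators of NRF2 were split in sign, with 9 of 17 positive, beside 49.0% of all tested genes, and a median log2 fold change of 0.06. At an unadjusted p under 0.05, 4 were higher and 1 lower, beside 9.61% and 5.63% of all genes. Without sIVs libraries 3 and 4, 2 were higher and 1 lower, beside 6.73% and 7.01%. Maff, a small MAF gene whose product pairs with NRF2, had the smallest p of the genes on these 5 lists. It stood at 4.12, 2.76, 2.92 and 2.35 CPM across PBS and at 7.37, 9.44, 7.40 and 8.77 CPM in sIVs. All sIVs libraries were well above PBS, the pair with low rod markers no more than the others, and the log2 fold change was 1.44 ± 0.20 (SE; adjusted p = 0.0868 by edgeR). It was 1.40 ± 0.22 without sIVs libraries 3 and 4 (SE; adjusted p = 0.0717 by edgeR). Of the other small MAF genes, Mafk had a log2 fold change of 0.33 ± 0.13 and Mafg one of -0.14 ± 0.12 (SE; adjusted p = 0.285 and 0.601 by edgeR). Mafg turned to 0.06 without sIVs libraries 3 and 4. Bach1, which encodes a repressor that competes with NRF2 for the same element, was at 34.8 ± 2.56 CPM across PBS and 36.4 ± 2.66 CPM across sIVs (SD, n = 4, edgeR adjusted p = 0.742). Its log2 difference was 0.07 with all libraries and 0.14 without sIVs libraries 3 and 4. The paralogous ubiquitin ligase adaptor genes Btrc and Fbxw11, whose products can also direct NRF2 to degradation, did not overlap between the groups and differed in sign, at -0.21 ± 0.07 and 0.23 ± 0.08 (SE; adjusted p = 0.241 and 0.249 by edgeR). Without sIVs libraries 3 and 4 Fbxw11 was at 0.11 and Btrc at -0.23. Gsk3b, the kinase gene of that route, was below PBS in every sIVs library with a log2 fold change of -0.11, and was named after its values were seen.

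Among 24 tested genes of glutathione synthesis and use the median log2 fold change was 0.19, and 0.01 without sIVs libraries 3 and 4. At an unadjusted p under 0.05, 8 were higher and 1 lower, beside 9.61% and 5.63% of all genes. Without those libraries 3 were higher and 2 lower, beside 6.73% and 7.01%. Gsto1, a glutathione transferase gene, was above every PBS library in all 4 sIVs libraries, with 28.8 CPM in library 3 and 19.9 to 20.4 CPM in the others (log2 fold change 0.44 ± 0.14, SE; adjusted p = 0.224 by edgeR; 0.28 without libraries 3 and 4). Ggct, which encodes a cyclotransferase of glutathione breakdown, was below PBS in all 4 (-0.43 ± 0.14 SE; adjusted p = 0.226 by edgeR; -0.27 without libraries 3 and 4). Gpx2 and Mgst2 did not pass the filter.

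The 16 thioredoxin and peroxiredoxin genes had a median of 0.21, and of 0.01 without sIVs libraries 3 and 4. At an unadjusted p under 0.05, 4 were higher and 2 lower, beside 9.61% and 5.63% of all genes. Without those libraries 2 were higher and 3 lower, beside 6.73% and 7.01%. Txn1, the thioredoxin that Txnrd1 reduces, stood at 44.4 ± 5.35 CPM across PBS and 54.5 ± 7.43 CPM across sIVs (SD, n = 4, log2 fold change 0.30 ± 0.12 SE; adjusted p = 0.285 by edgeR; 0.17 without libraries 3 and 4). Prdx1, a peroxiredoxin gene, was at 87.1 to 97.3 CPM across PBS and at 95.4, 136, 137 and 97.7 CPM in sIVs libraries 2 to 5, and its log2 fold change moved from 0.35 ± 0.13 to 0.08 without libraries 3 and 4 (SE; adjusted p = 0.264 and 0.685 by edgeR). Txnrd3 was above PBS in every sIVs library, at 0.39 ± 0.14, and at 0.40 without libraries 3 and 4 (SE; adjusted p = 0.257 and 0.349 by edgeR). Sestrin genes encode stress-inducible regulators of peroxide metabolism and growth signalling. Sesn1 was at -0.21 ± 0.07 (SE, adjusted p = 0.243 by edgeR). Sesn2, named after its values were seen, was at -0.22 and below PBS in every sIVs library. Sesn3, also on the list, is not described here.

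Quinone, aldehyde, haem and NADPH enzyme genes had a median of 0.14 over 24 tested genes, and of 0.02 without sIVs libraries 3 and 4, where 14 of the 24 were positive. At an unadjusted p under 0.05, 8 were higher and 1 lower, beside 9.61% and 5.63% of all genes. Without those libraries 3 of 26 were higher and 0 lower, beside 6.73% and 7.01%. Every sIVs library was above PBS for 4 genes, beside 4.42% of all genes. These 4 were Hmox1, Aox1, Pgls and G6pdx. Hmox1 encodes haem oxygenase and is controlled by both NRF2 and BACH1. It stood at 8.37, 7.89, 8.26 and 5.05 CPM across PBS and at 10.6, 47.0, 46.7 and 21.4 CPM in sIVs. Its spread over the sIVs libraries was wider than that of any of the 10 genes, and the log2 fold change of 2.09 ± 0.43 became 1.11 ± 0.26 without libraries 3 and 4 (SE; adjusted p = 0.153 and 0.177 by edgeR). Aox1, an aldehyde oxidase gene, had a similar order of libraries, with 7.16, 21.0, 19.2 and 11.0 CPM in sIVs against 4.41 to 7.08 CPM in PBS (log2 fold change 1.22 ± 0.32, SE; adjusted p = 0.178 by edgeR), and it moved to 0.54 without libraries 3 and 4. G6pdx and Pgls, which encode the first enzymes of the NADPH-yielding pentose phosphate pathway, were higher by 0.12 ± 0.06 and 0.39 ± 0.09 on the log2 scale (SE; adjusted p = 0.398 and 0.167 by edgeR). Aldh3a1 and Ces1d did not pass the filter.

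ATF4, a factor of the integrated stress response, also controls Slc7a11 and other amino acid genes. Its 15 listed genes stood at a median log2 fold change of 0.21. At an unadjusted p under 0.05, 5 were higher and 0 lower, beside 9.61% and 5.63% of all genes. Without sIVs libraries 3 and 4, 5 were higher and 2 lower, beside 6.73% and 7.01%. Atf4 itself was at 278 to 306 CPM across PBS and at 348, 247, 237 and 413 CPM in sIVs, so libraries 2 and 5 lay above and libraries 3 and 4 below PBS (log2 fold change 0.09 ± 0.17, SE; adjusted p = 0.825 by edgeR). Without libraries 3 and 4 its value was 0.38. Atf3, a stress-induced factor gene, was above PBS in every sIVs library at 1.36 ± 0.24, and at 1.08 without libraries 3 and 4 (SE; adjusted p = 0.136 and 0.149 by edgeR). The cationic and large neutral amino acid transporter genes Slc7a1 and Slc7a5 had log2 fold changes of 0.40 ± 0.12 and 0.39 ± 0.13 (SE; adjusted p = 0.205 and 0.224 by edgeR), and of 0.20 and 0.17 without libraries 3 and 4. Aars, named after its values were seen, was the other gene of the list above PBS in every sIVs library, at 0.21.

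**Figure D5:**
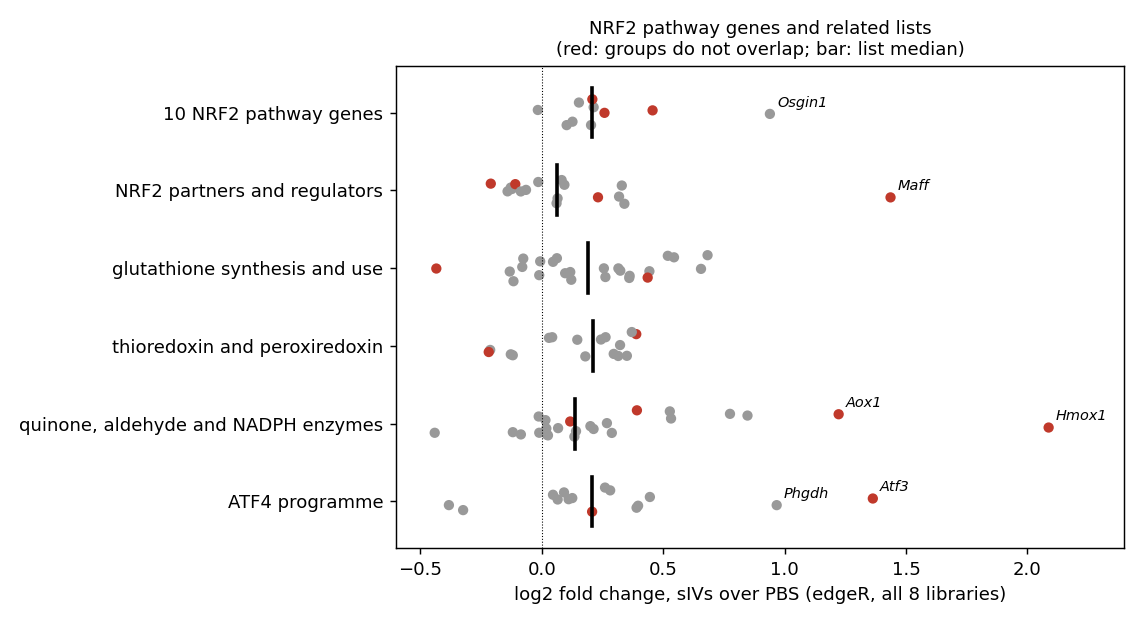
Log2 fold changes (edgeR, all 8 libraries) of the 10 genes and of the 5 related lists, 1 point per tested gene, with the list median as a black bar and genes whose groups do not overlap in red. Medians lie between 0.06 and 0.21, and Hmox1, Maff, Atf3 and Aox1 lie far to the right of their lists.

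Likeness of pattern was measured for Osgin1 and Slc7a11, which had the widest range over the 8 libraries on the log2 CPM scale, 1.52 and 0.82. The measure was the root mean square difference of log2 CPM centred on the PBS mean, over 8 libraries and 16468 other genes whose mean reached 1 CPM. Nearest to Osgin1 were Net1, Alpk1 and S1pr2, at 0.09, 0.14 and 0.16, where the median gene was at 0.75. Net1 stood at 1.57, 2.45, 2.42 and 1.31 times its PBS mean in sIVs libraries 2 to 5, beside 1.55, 2.46, 2.54 and 1.13 times for Osgin1. Nearest to Slc7a11 were Daam2, Zfp677 and Rps6ka6, at 0.09, 0.11 and 0.14, where the median gene was at 0.33. None of these 6 is on any of the lists used here.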

How the data were processed

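Per the labels' protocols, retinal RNA was extracted with TRIzol, selected by poly(A) tail, made into strand-marked (dUTP) libraries and sequenced in paired ends (Illumina). The build is mm10, per the submitters' processing notes. For the aligner, counting program and annotation nothing is stated in the sources used here. Raw whole-number counts fill the deposited count table, and the deposited FPKM table equals count over gene length and library total times 1 constant per library, from 0.930 to 1.03 for the 10 genes.

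Counts were tested with edgeR 4.0.16 (R 4.3.3; filterByExpr, TMM, glmQLFit, glmQLFTest, group as the only term, Benjamini-Hochberg over 17725 genes, threshold 0.05). CPM were computed with library sizes adjusted by TMM, log2 CPM uses a prior count of 2, and SE come from the F statistic. No 2 libraries agreed within sampling noise (lowest chi-square per gene 3.65). That closest pair was across groups, PBS library 1 and sIVs library 2. Leaving out sIVs library 2 thus removes the sIVs library nearest to a PBS library. The lowest value was 3.84 within PBS and 4.69 within sIVs, the latter for libraries 3 and 4. Titles assigned libraries to groups. The members and lists were chosen with earlier results of these data known. Named are the 10 genes, the 3 of smallest p in each of the 5 lists, 10 regulators and targets always named, and the nearest patterns; others are marked. Alternatives were DESeq2 1.42.0, limma 3.58.1 (voom with and without quality weights; log2(FPKM + 0.1) and log2(FPKM + 1)), other scalings and filters, libraries left out, replicate blocks and a threshold of 0.10.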

Additional observations from a re-analysis of the deposited data

Results flagged for a closer look

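In 6 of 62 groups of 4 libraries, over the 31 named pathway genes and both groups, 1 library stood far from the other 3; chance gives about 1 in 20 such groups. Gclc was high in PBS library 3, at 54.7 CPM against 46.7 to 47.2 CPM in the other PBS libraries. Osgin1 was high in PBS library 2, at 4.75 CPM against 3.06 to 3.26 CPM. PBS library 4 was low for Bach1, at 30.9 CPM against 35.7 to 36.4 CPM, for Hmox1, at 5.05 CPM against 7.89 to 8.37 CPM, and for Aox1, at 4.41 CPM against 6.66 to 7.08 CPM. Gsto1 was high in sIVs library 3, at 28.8 CPM against 19.9 to 20.4 CPM in the other sIVs libraries.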

How the results depend on the processing

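Over all genes the count past the threshold was 0 with edgeR, 571 with DESeq2, 4973 with limma-voom and quality weights, 152 without a filter beyond 1 count, 3 without sIVs libraries 3 and 4, and 11 at a threshold of 0.10. Of the 10 genes, 1 passed with DESeq2 and 6 with quality weights (Nfe2l2, Gclc, Gclm, Txnrd1, Srxn1 and Osgin1); the cause was not tested. Of the 96 tested genes on the 5 related lists, 0 passed with edgeR, 5 with DESeq2, 47 with quality weights and 15 without sIVs library 2. The shares of all genes called were 0%, 3.22%, 28.1% and 7.39% in the same order. Without a filter beyond 1 count 3 of 100 passed (Maff, Hmox1 and Atf3), where 152 of 33760 genes did. Leaving out each library in turn gave 0 to 1331 genes over all, 0 to 2 of the 10 past the threshold, 3 to 6 of the 10 with every sIVs library above PBS (a count that fewer libraries can raise), and medians of the 10 from 0.17 to 0.23; each highest value came without sIVs library 2 except that median, which came without PBS library 3. The median of the 10 was 0.28 with scaling by library totals and 0.16 without sIVs libraries 3 and 4. Signs turned for Nqo1 (-0.0094) and Mafg (0.055) without sIVs libraries 3 and 4, for Slc7a11 with library totals (0.061) and quality weights (0.050), for Bach1 (-0.011) and Atf4 (-0.17) with quality weights, and with single libraries left out for Slc7a11 (-0.17 to 0.11) and Atf4 (-0.076 to 0.20).

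The titles number libraries 2 to 4 in both groups and the descriptions number all 4, but same-numbered libraries did not deviate together (correlations from -0.07 to 0.10), so the numbers were not taken as pairs. With a replicate block by title number no gene passed, the median of the 10 was 0.18, and Slc7a11 and Atf4 stood at 0.070 and -0.073; a block by biosample number called no gene either. Depth limits the low genes most: Osgin1 and Nqo1 rest on 43 to 163 counts per library.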
